A study of Mus musculus with 3 samples.

Results

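Solute carriers that move ions, phosphate, sulphate, zinc and magnesium across membranes were examined in YFP-positive cells sorted from mouse kidney. The set holds every gene whose symbol begins with Slc4a, Slc8a, Slc9a, Slc12a, Slc13a, Slc20a, Slc24a, Slc26a, Slc30a, Slc34a, Slc39a or Slc41a and whose probe set carries that symbol alone. That gave 86 probe sets for 83 genes, out of 19938 genes on the array. Of the 83, 3 are not carriers but share a prefix: Slc9a3r1 and Slc9a3r2, which encode scaffold proteins of the sodium/proton exchanger, and Slc4a1ap, which encodes an adaptor of the anion exchanger.

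The cells came from the kidney cortex of adult male Ren1c-YFP transgenic mice of unspecified strain, in which renin-producing juxtaglomerular cells carry yellow fluorescent protein. For 2 weeks all mice ate low-salt chow and drank water holding 0.5 mg/ml of captopril, which blocks angiotensin-converting enzyme. RNA of the sorted cells was amplified and hybridised to single-colour Affymetrix arrays, giving 1 group of 3 arrays, replicates 2, 4 and 5. There was no untreated, unsorted or YFP-negative sample, so the values are levels and not effects of the drug, the diet or the sort, and p-values reflect the spread of 3 samples that may differ only technically. A level here is the log2 signal of a probe set, and its height is that signal minus the background level of the same array, set by olfactory receptor genes at 6.20, 6.32 and 6.50 in replicates 2, 4 and 5. A gene was called above background when limma's one-sided adjusted p over all genes was below 0.05. Levels of different genes are not ranked against each other, because probe affinity also sets a signal.

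Cation-chloride cotransporters of the Slc12 family carry chloride together with sodium, potassium or both. Their kidney members reabsorb salt and their widely used members set cell chloride and volume. Slc4 proteins carry bicarbonate and Slc9 proteins exchange sodium for protons, and with carbonic anhydrase they recover bicarbonate in the proximal tubule. Slc34 and Slc20 proteins take up phosphate with sodium, Slc13 and Slc26 proteins carry sulphate, dicarboxylates and other anions, Slc8 and Slc24 proteins expel calcium, Slc30 and Slc39 proteins move zinc out of and into the cytosol, and Slc41 proteins are linked to magnesium.

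Of the 83 genes, 38 were above background (45.8%), beside 37.3% of all genes and 109 of 253 other Slc genes (43.1%). The share is thus near that of other solute carriers and of the array as a whole, and no test was made of the difference. All 38 lay above the level on each of the 3 arrays, with heights from 0.40 to 5.57. The height exceeded 2 in 12 of them and was below 1 in 13. Among the 45 genes not called, 37 had a mean under the level and 8 a mean above it, and the lowest height was -2.13, for Slc26a3. The median height over all 83 was 0.20, against -0.012 over all genes.

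**Figure D1:**
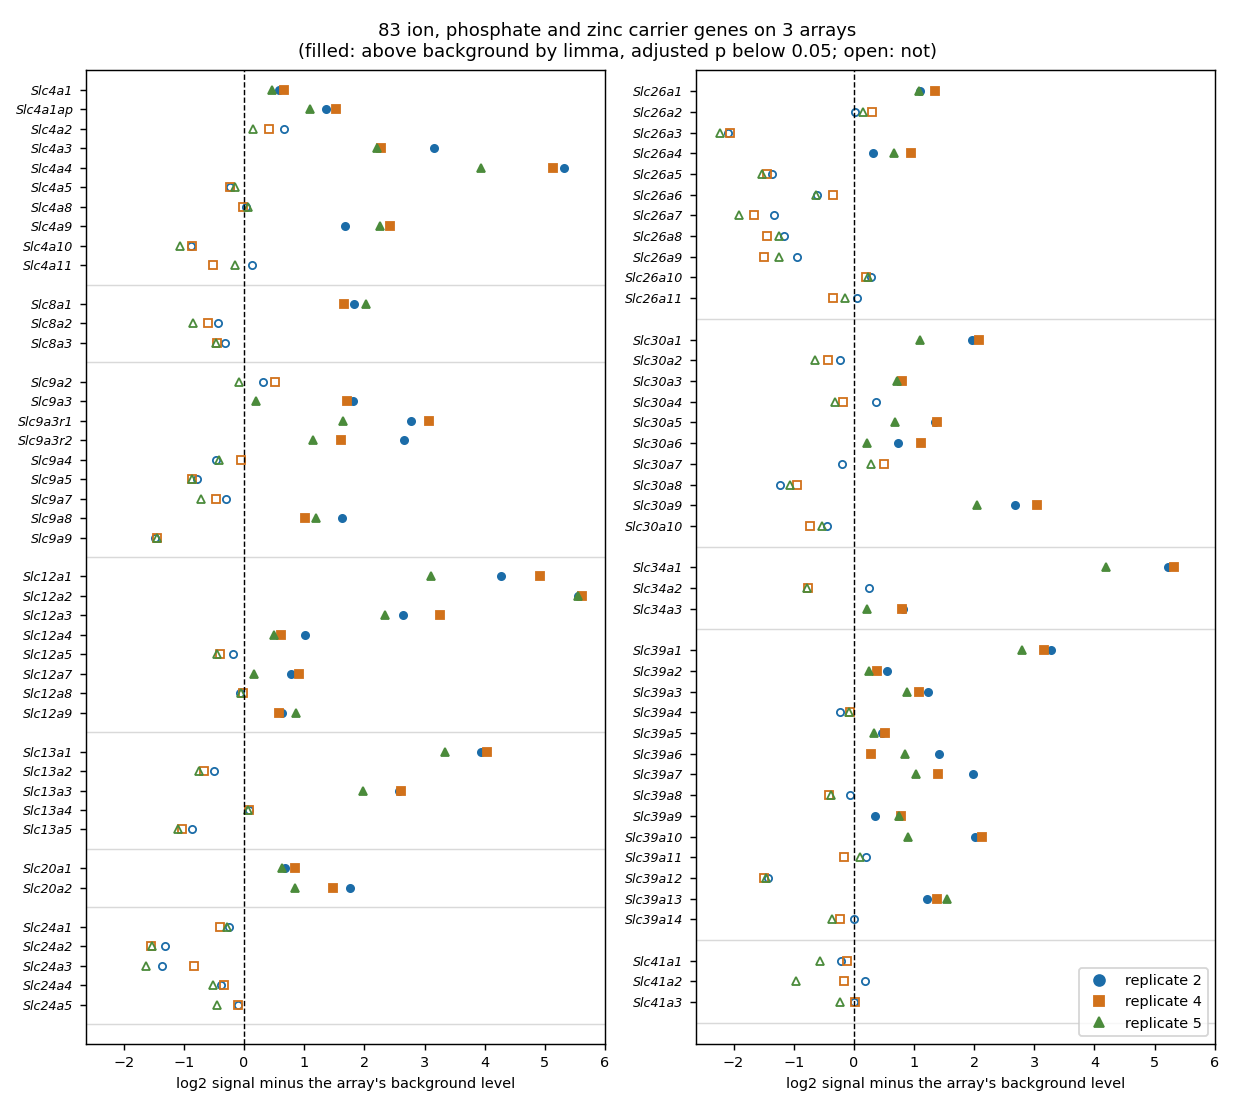
Log2 signal minus the array's background level (x axis, log2 units) for each of the 83 genes, grouped by family; each symbol is 1 array (circle replicate 2, square replicate 4, triangle replicate 5), filled where the gene was above background by limma. Slc12a2, Slc34a1, Slc4a4, Slc12a1 and Slc13a1 stand furthest right, while the Slc24a and Slc41a families have no filled symbol.

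Called members were also counted by family, beside the 37.3% of all genes and 43.1% of other Slc genes, and no difference between families was tested. The same 37.3% stands beside the counts called in the lists of carriers, partners and markers below. In the Slc12a family 6 of 8 passed, in Slc39a 9 of 14, in Slc34a 2 of 3, in Slc20a 2 of 2, in Slc4a 5 of 10, in Slc30a 5 of 10, in Slc9a 4 of 9, in Slc13a 2 of 5, in Slc8a 1 of 3 and in Slc26a 2 of 11. None of 5 Slc24a genes and none of 3 Slc41a genes passed by limma, nor did any of these 8 at an unadjusted p under 0.05. With vomeronasal receptor genes as background, a lower level that 65.9% of all genes passed, 3 Slc24a and all 3 Slc41a genes were called.

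Slc12a2 encodes NKCC1, the sodium-potassium-chloride cotransporter by which many cells, smooth muscle among them, load chloride. Its log2 signal was 11.76, 11.93 and 12.06 in replicates 2, 4 and 5, a height of 5.57 ± 0.18 (SE, n = 3; limma adjusted p = 1.47e-07). The 3 arrays lay within 0.30 of each other, with replicate 5 the highest. The other chloride and volume genes stood closer to the level. Slc12a4, which encodes the potassium-chloride cotransporter KCC1, read 7.22, 6.93 and 7.01 (limma adjusted p = 0.00821), and Slc12a7, for KCC4, read 6.98, 7.22 and 6.67 (limma adjusted p = 0.0216). Slc12a9, whose substrate is not settled, read 6.83, 6.89 and 7.36 (limma adjusted p = 0.00697). So 4 of 4 measured genes of this group passed, with ranges over the arrays from 0.29 to 0.56. With replicate 2 left out, 30.3% of all genes were called and Slc12a4 and Slc12a7 no longer passed (limma adjusted p = 0.0567 and 0.107). With replicate 4 left out, 32.1% were called and Slc12a7 again missed the threshold (limma adjusted p = 0.126). Slc12a8 (6.13, 6.30 and 6.45) and the neuronal KCC2 gene Slc12a5 (6.03, 5.92 and 6.05) were not called.

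Both diuretic-sensitive salt cotransporters of the nephron were above background. Slc12a1, the furosemide-sensitive NKCC2 of the thick ascending limb, read 10.47, 11.24 and 9.61, a height of 4.10 ± 0.35 (SE, n = 3; limma adjusted p = 2.33e-05). Its arrays spanned 1.64 log2 units, the widest range among the called genes of the set, with replicate 4 the highest and replicate 5 the lowest. Slc12a3, the thiazide-sensitive NCC of the distal convoluted tubule, read 8.84, 9.58 and 8.85, also highest in replicate 4 (height 2.75, limma adjusted p = 5.16e-05). Slc12a1 is the gene where replicates differ most and Slc12a2, of the same family, one where they differ little. Of 7 thick ascending limb markers 6 were above background, with median signals of 10.26, 10.51 and 9.41 in replicates 2, 4 and 5. Of the 6, 5 were highest in replicate 4, beside 35.4% of all called genes, and 5 were lowest in replicate 5, beside 52.8%. Kcnj1 was lowest in replicate 2 and Cldn10 was highest there. After quantile normalization 5 were highest in replicate 4, beside 30.1%, and 4 were lowest in replicate 5, beside 39.5%. Umod, the gene of uromodulin made in the thick ascending limb, read 11.98, 12.24 and 11.15. In bulk samples of this kind, fewer cells of a type and less RNA per cell cannot be told apart. The part of carried-over or co-sorted tubule cells in these signals was not tested. The apical exchanger gene Slc9a2 (6.51, 6.83 and 6.42) was not called (limma adjusted p = 0.205).

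Regulators and exits of the same salt pathway were measured too. Of 14 genes that control cation-chloride cotransport 9 passed. They included the ubiquitin ligase gene Cul3 (11.55, 11.46 and 11.38), the kinase gene Wnk1 (10.83, 10.92 and 10.63), Stk39, which encodes the kinase SPAK that phosphorylates these cotransporters (10.45, 9.79 and 9.31), and Ppp1r1a, for a phosphatase inhibitor (9.07, 9.12 and 8.90). Klhl3, for the adaptor that brings WNK kinases to Cul3, was under the level (5.70, 6.24 and 5.81), as was Wnk3 (5.13, 4.65 and 5.27). All 9 that passed were lowest in replicate 5 as deposited, beside 52.8% of all called genes, and 6 of the 9 after quantile normalization, beside 39.5%. All 6 measured genes on a list of salt exit and potassium channel genes passed. Among them were the sodium pump subunit gene Atp1b1 (12.54, 12.84 and 12.24) and the potassium channel gene Kcnj16 (10.78, 11.28 and 10.61). The list also held Kcnj1 (10.61, 11.25 and 10.84), whose channel is apical and which is counted among the thick ascending limb markers too. All 6 were highest in replicate 4, beside 35.4% of all called genes, and all 6 after quantile normalization, beside 30.1%.

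Proximal tubule carriers were above background in 8 of 10 cases. Slc34a1, the NaPi-IIa cotransporter that recovers most filtered phosphate, read 11.43, 11.64 and 10.70, a height of 4.92 ± 0.27 (SE, n = 3; limma adjusted p = 2.12e-06). Slc4a4, the basolateral sodium bicarbonate cotransporter NBCe1, read 11.53, 11.46 and 10.45 (height 4.8, limma adjusted p = 4.18e-06). Slc13a1, the brush border sulphate cotransporter, read 10.14, 10.35 and 9.84 (height 3.77, limma adjusted p = 6.64e-06). In each of these 3 genes replicate 5 was lowest, with differences from the mean of the other arrays of -0.84, -1.04 and -0.40, though after quantile normalization Slc13a1 was lowest in replicate 2. Slc13a3, a basolateral dicarboxylate carrier, read 8.77, 8.92 and 8.48, and Slc9a3, the apical sodium/proton exchanger NHE3, read 8.02, 8.02 and 6.70. NHE3 thus differed by -1.32 in replicate 5, where it was 0.19 above that array's level. It was not called when replicate 2 was left out (limma adjusted p = 0.063).

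The other proximal carriers had smaller heights. Slc20a2, the phosphate carrier PiT-2, read 7.96, 7.79 and 7.35, Slc26a1, a basolateral sulphate and oxalate exchanger, read 7.30, 7.67 and 7.59, and Slc34a3, the second renal phosphate cotransporter NaPi-IIc, read 7.02, 7.11 and 6.72. Slc34a3 had limma adjusted p = 0.0184 and missed the threshold with replicate 2 or replicate 4 left out (limma adjusted p = 0.101 and 0.0998). Slc26a1 was the only called proximal carrier that was not lowest in replicate 5. The brush border genes Slc13a2, a citrate and dicarboxylate carrier (5.71, 5.66 and 5.76), and Slc26a6, a chloride and oxalate exchanger (5.58, 5.97 and 5.87), were under the level on every array. In all, 7 of the 8 called proximal carriers were lowest in replicate 5 as deposited, beside 52.8% of all called genes, and 6 of 8 after quantile normalization. Proximal tubule markers outside the set were lowest there in 9 of 13 cases, all 13 being above background, with median signals of 11.04, 10.37 and 10.17 and a median difference of -0.57 for replicate 5. Kap (13.16, 13.00 and 13.11) and Slc27a2 (12.41, 12.12 and 12.21) were among those not lowest in replicate 5. How far the amount of tubule RNA accounts for the carriers was not tested.

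**Figure D2:**
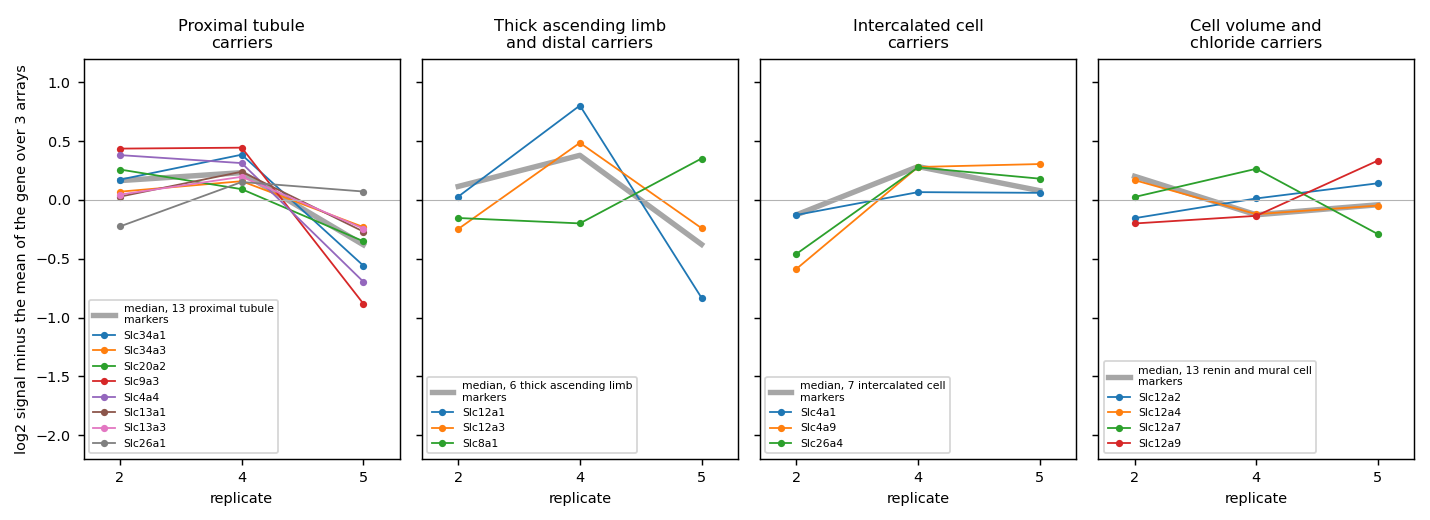
Log2 signal of each called carrier minus its own mean over the 3 arrays (y axis, log2 units), by the nephron site or role of the carrier. Thin lines join the values of 1 gene in replicates 2, 4 and 5, whose order carries no meaning. Thick grey lines give the median of called proximal tubule, thick ascending limb, intercalated cell, and renin and mural cell markers, in panel order. Distal tubule markers, not drawn, had a median difference of 0.69 for replicate 5, against -0.57 for thick ascending limb markers. As deposited, 7 of 8 genes in the proximal panel (6 after quantile normalization) have their lowest point in replicate 5, in the intercalated panel all 3 have it in replicate 2, and Slc12a2 stays within 0.30.

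Scaffold and enzyme partners of the brush border were also lowest in replicate 5, as were 52.8% of all called genes. Slc9a3r1, which encodes NHERF1, a scaffold that holds NHE3 and NaPi-IIa at the membrane, read 8.98, 9.40 and 8.15 (height 2.50, limma adjusted p = 0.000208), with replicate 5 the lowest by a difference of -1.04. Pdzk1, another scaffold of these carriers, read 10.92, 10.68 and 8.92, Ezr, which ties NHERF1 to actin, read 8.68, 8.79 and 7.60, and Car4, the membrane carbonic anhydrase, read 9.75, 9.69 and 7.20. For these genes replicates 2 and 4 lay close together and replicate 5 lay apart below them. Of 13 bicarbonate and proton partners 11 were above background, beside 37.3% of all genes. Of the 11, 10 were lowest in replicate 5 as deposited, beside 52.8% of all called genes, and 8 after quantile normalization, beside 39.5%. Ahcyl1, for the NBCe1 regulator IRBIT, was the steadiest of those with high heights (10.90, 10.77 and 10.60), and Car15 (9.54, 10.68 and 8.65), Car2 (8.69, 9.32 and 8.61) and Car12 (8.5, 9.07 and 6.65) were also called. Chp2 (5.14, 5.10 and 5.34) and Tescl (4.96, 5.41 and 5.22), for calcium-binding partners of exchangers, were not.

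Slc9a3r2, which encodes the related scaffold NHERF2, had another order, 8.87, 7.93 and 7.65, so that replicate 2 stood 1.08 above the mean of the others (height 1.81, limma adjusted p = 0.00103). Endothelial markers were highest in replicate 2 as well: 5 of 9 were above background, all 5 of these were highest there, beside 43.8% of all called genes, and their median signals were 9.03, 7.08 and 7.04. Ptprb, a receptor phosphatase of endothelium, read 10.16, 7.36 and 8.16. Whether Slc9a3r2 signal came from such cells was not tested.

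Genes that control phosphate were above background in 7 of 9 measured cases. Kl, the gene of the FGF23 co-receptor klotho, read 8.99, 9.27 and 9.28, Pth1r, the parathyroid hormone receptor gene, read 8.53, 8.73 and 8.15, and Fgfr1 read 7.98, 7.73 and 7.68. Fgfr3 (6.50, 6.44 and 6.80) and Fgfr4 (6.37, 6.64 and 6.49) were not called. The housekeeping phosphate carrier gene Slc20a1, for PiT-1, read 6.88, 7.16 and 7.14 (height 0.72, limma adjusted p = 0.00537) and stayed called when any 1 array was left out. Slc34a2, the phosphate cotransporter of gut and lung, was not called and read 6.45, 5.55 and 5.73, above the level in replicate 2 alone. The sulphate carriers Slc13a4, Slc26a2 and Slc26a11 and the citrate carrier Slc13a5 were not called either, with means from 5.34 to 6.50.

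Intercalated cell carriers, which secrete acid or base in the collecting duct, were called in 3 of 5 cases. Slc4a9, the basolateral anion exchanger AE4, read 7.88, 8.75 and 8.77 (height 2.12, limma adjusted p = 0.000142). Slc26a4, pendrin, the apical chloride/bicarbonate exchanger of base-secreting cells, read 6.53, 7.26 and 7.17 (height 0.64, limma adjusted p = 0.0137), and Slc4a1, the anion exchanger AE1 of acid-secreting cells and of red cells, read 6.79, 6.98 and 6.97 (limma adjusted p = 0.0124). All 3 were lowest in replicate 2, against 21.1% of all called genes. Intercalated cell markers passed in 7 of 8 cases, 4 of the 7 lowest in replicate 2, with median signals of 7.51, 7.90 and 7.83. Principal cell markers passed in 7 of 8, 6 of the 7 lowest in replicate 2, with median signals of 7.41, 8.46 and 7.99. After quantile normalization, 6 of the 7 in each list were lowest in replicate 2, beside 27.1% of all called genes. The part of these cell types in the carrier values was not tested. Of 4 measured erythroid markers none passed by limma, or at an unadjusted p under 0.05, so the listed red cell genes were not detected above background. Pendrin was not called with replicate 4 left out (limma adjusted p = 0.112), and Slc4a1 was not called with replicate 2 or replicate 4 left out (limma adjusted p = 0.0567 and 0.0938). Slc26a7 (4.87, 4.65 and 4.59) and Slc4a8 (6.24, 6.31 and 6.57) were not called.

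Outside the nephron groups, 1 of 6 pH carriers was called. Slc4a3, the anion exchanger AE3 of muscle and nerve, read 9.36, 8.59 and 8.71, a height of 2.54 ± 0.28 (SE, n = 3; limma adjusted p = 9.26e-05). Replicate 2 was 0.71 above the other arrays. Renin and mural cell markers were also highest there in 11 of 13 cases as deposited, beside 43.8% of all called genes. After quantile normalization 7 of 13 were, beside 36.9%. All 13 were above background, with median signals of 11.70, 11.25 and 11.07 and a median difference of 0.30 for replicate 2. All 5 called endothelial markers were highest there too, with a median difference of 1.86. The part of either cell type in the Slc4a3 signal was not tested. A second probe set of Slc4a3 read 7.35, 7.20 and 7.10 and was called too. Slc4a2, the widely used exchanger AE2, read 6.87, 6.73 and 6.66, above the level on every array, and missed the threshold (limma adjusted p = 0.0542). It passed under 7 of 12 alternatives, with limma adjusted p = 0.0461 after quantile normalization and 0.0261 without replicate 5. Slc4a5, Slc4a10, Slc4a11 and Slc9a5 had means under the level, from 5.40 to 6.16. Slc4a1ap, the adaptor gene, read 7.57, 7.84 and 7.61 (limma adjusted p = 0.000601).

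Among organelle sodium/proton exchangers, Slc9a8, the Golgi exchanger NHE8, read 7.82, 7.34 and 7.69 (height 1.28, limma adjusted p = 0.000916). The trans-Golgi exchanger gene Slc9a7 (5.89, 5.84 and 5.78) and the late endosomal Slc9a9 (4.73, 4.87 and 5.05) were under the level on every array.

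Of 8 calcium exchanger genes only Slc8a1 was called. It encodes NCX1, the sodium/calcium exchanger of heart, smooth muscle and distal tubule, and read 8.03, 7.98 and 8.53 (height 1.84 ± 0.22, SE, n = 3; limma adjusted p = 0.00016). Replicate 5 was highest, 0.53 above the other arrays, whereas 20.8% of all called genes were highest there. Distal tubule markers that passed, 3 of 5, were highest in replicate 5 in 2 cases, S100g (11.23, 12.00 and 12.31) and the calcium channel gene Trpv5 (6.92, 6.81 and 7.70). The third, Calb1, the calbindin gene, read 9.13, 9.34 and 9.06 and was lowest in replicate 5 as deposited. After quantile normalization Calb1 read 9.04, 9.24 and 9.25, so all 3 markers were highest in replicate 5, beside 32.9% of all called genes. Slc12a3 of the distal convoluted tubule was highest in replicate 4 both ways. The part of distal tubule RNA in the Slc8a1 signal was not tested. A second probe set of Slc8a1 read 6.90, 6.26 and 6.61 and was not called. Slc8a2 and Slc8a3, the exchangers of brain and skeletal muscle, had means of 5.71 and 5.93, and Slc24a1 to Slc24a5, which also move potassium, had means from 4.88 to 6.13. The potassium-dependent exchanger gene of smooth muscle, Slc24a3, read 4.84, 5.49 and 4.88.

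Zinc carriers were above background in 14 of 24 cases. Among the exporters, Slc30a1, the plasma membrane exporter ZnT1, read 8.17, 8.39 and 7.60 (height 1.71, limma adjusted p = 0.00056), and Slc30a9, a mitochondrial zinc carrier, read 8.88, 9.37 and 8.54 (height 2.59, limma adjusted p = 8.01e-05). Slc30a5 and Slc30a6, which form 1 complex that loads zinc into the early secretory pathway, read 7.54, 7.70 and 7.18, and 6.93, 7.43 and 6.73. These 4 shared an order, highest in replicate 4, as were 35.4% of all called genes, and lowest in replicate 5, as were 52.8%. Slc30a3, the zinc carrier of synaptic vesicles, read 6.96, 7.11 and 7.22 and was highest in replicate 5. Slc30a7, a Golgi carrier, was not called (6.01, 6.82 and 6.80), and nor were Slc30a2, Slc30a4, Slc30a8, the carrier of insulin granules, and the manganese exporter gene Slc30a10, with means from 5.26 to 6.30. Slc30a6 was not called with replicate 2 or replicate 4 left out (limma adjusted p = 0.0737 and 0.123).

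Of the cytosolic zinc-binding metallothionein genes, Mt1 and Mt2 showed the order of the 4 exporters, with a wider spread, and Mt3 did not. Mt1 read 9.63, 9.90 and 8.59, and Mt2 read 9.57, 10.58 and 8.41. Mtf1, the metal-sensing transcription factor gene, read 7.54, 7.33 and 7.05, and Mt3 (7.37, 7.13 and 7.83) had the opposite order, with replicate 5 the highest. Tmem163, also listed for zinc buffering, read 6.83, 7.03 and 7.48 and was highest in replicate 5 too. All 5 genes of that list were above background. MTF1 is known to bind metal response elements, whose core is TGCACNC or TGCGCNC, before Slc30a1 and the metallothionein genes. Slc30a1, Mt1 and Mt2 were chosen here for a shared order of arrays, which the tubule markers Umod and Lrp2 also had. Of all called genes, 35.4% were highest in replicate 4 and 52.8% lowest in replicate 5. A part of MTF1 in the order was not tested. The 250 bases before the RefSeq start of Slc30a1, Mt1 and Mt2 are shown, from GRCm38.p6, 5′ to 3′ on the gene's strand. Matches to either core on either strand are in capitals.
Slc30a1: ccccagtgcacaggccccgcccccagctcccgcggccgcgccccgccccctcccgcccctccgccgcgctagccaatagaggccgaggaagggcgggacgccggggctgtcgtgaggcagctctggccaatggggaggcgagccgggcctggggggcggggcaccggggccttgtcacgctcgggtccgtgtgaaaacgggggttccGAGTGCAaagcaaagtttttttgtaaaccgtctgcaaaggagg
Mt1: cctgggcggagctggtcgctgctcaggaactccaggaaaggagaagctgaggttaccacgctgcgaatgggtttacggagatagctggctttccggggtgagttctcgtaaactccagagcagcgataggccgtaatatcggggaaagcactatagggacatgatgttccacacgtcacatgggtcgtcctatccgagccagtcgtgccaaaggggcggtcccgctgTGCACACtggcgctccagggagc
Mt2: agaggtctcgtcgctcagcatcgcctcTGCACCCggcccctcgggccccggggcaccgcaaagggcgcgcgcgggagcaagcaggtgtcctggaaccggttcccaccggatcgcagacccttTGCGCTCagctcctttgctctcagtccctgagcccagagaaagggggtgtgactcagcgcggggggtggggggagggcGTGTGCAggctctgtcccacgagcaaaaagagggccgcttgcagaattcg
These windows are chr1:191906531-191906780, chr8:94178839-94179088 and chr8:94172368-94172617, all on the plus strand. They hold 1, 1 and 3 matches, and bases outside the windows, such as those after the RefSeq start, were not searched. A match occurred in 7032 of 32851 such windows (21.4%), so a single match is common. By gene it occurred in 10 of the 20 zinc carriers with a window and in 27 of 68 members with one, against 23.8% of genes on the table, a difference that was not tested. Of the other called exporters, Slc30a3 and Slc30a5 had a match, and Slc30a6 and Slc30a9 had none. Of the exporters not called, Slc30a2, Slc30a4 and Slc30a10 had a match, Slc30a7 had none and Slc30a8 had no window. A match describes these letters and shows no binding.

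The importers, which raise cytosolic zinc, did not share 1 order. Slc39a1, a plasma membrane importer, read 9.48, 9.49 and 9.31 (height 3.08, limma adjusted p = 1.73e-05), and Slc39a3 read 7.44, 7.41 and 7.39, arrays within 0.056 of each other. Slc39a7, which releases zinc from the endoplasmic reticulum, read 8.18, 7.72 and 7.54, and Slc39a13, a Golgi importer needed in connective tissue, read 7.42, 7.70 and 8.05, the reverse order. Slc39a10 read 8.21, 8.45 and 7.40, lowest in replicate 5 by a difference of -0.93, while its close relative Slc39a6 read 7.62, 6.61 and 7.35, lowest in replicate 4 by a difference of -0.87, and 26.1% of all called genes were lowest there. Each of these 2 genes spanned over 1 log2 unit. Slc39a9, Slc39a5 and Slc39a2 passed with heights of 0.63, 0.44 and 0.40 (limma adjusted p = 0.0123, 0.0308 and 0.0475). Slc39a2 and Slc39a5 missed the threshold with replicate 2 left out (limma adjusted p = 0.198 and 0.11) and with replicate 4 left out (limma adjusted p = 0.177 for both). Slc39a6 needed replicate 2 for its call (limma adjusted p = 0.0751 when it was left out) and Slc39a9 needed replicate 4 (limma adjusted p = 0.085). A second probe set of Slc39a1 read 6.03, 6.37 and 6.37 and was not called. The intestinal importer gene Slc39a4, the metal importers Slc39a8 and Slc39a14, Slc39a11 and the brain gene Slc39a12 were not called, with means from 4.88 to 6.39.

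**Figure D3:**
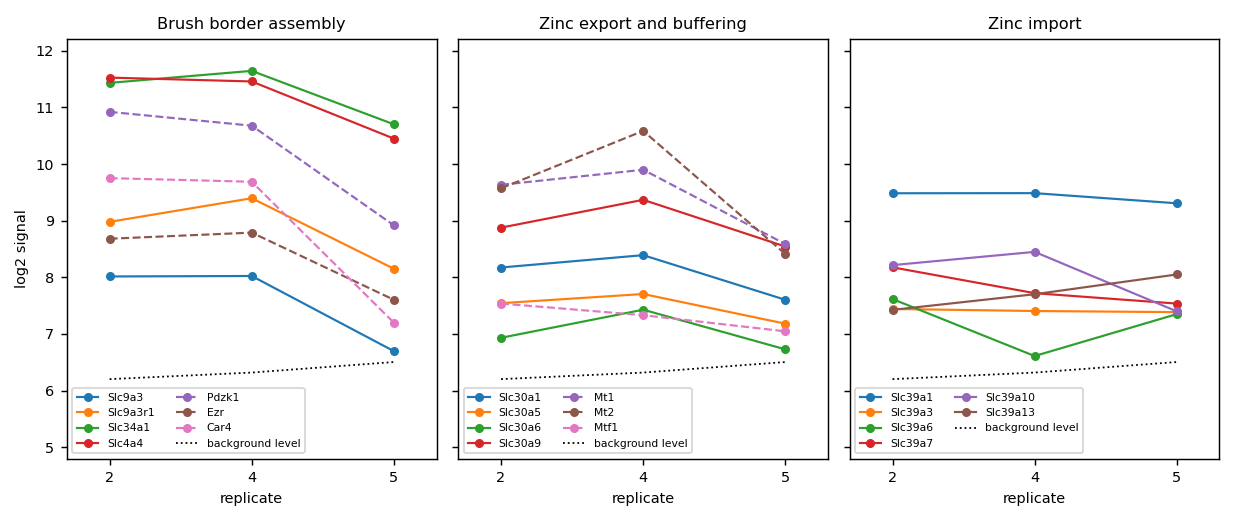
Log2 signal (y axis) in replicates 2, 4 and 5 for chosen genes. The panels hold brush border genes with the basolateral Slc4a4, zinc exporters with zinc-buffering genes, and zinc importers. Solid lines are genes of the set, dashed lines are partners and the dotted line is the array's background level. Lines join values of 1 gene without any order among replicates. Called genes left out include Slc30a3, Mt3 and Tmem163, all highest in replicate 5, and the importers Slc39a9, Slc39a5 and Slc39a2. In the first panel every gene shown has its lowest value in replicate 5, Slc9a3 reaching 6.70. Of brush border carriers left out of it, Slc26a6, not called, was lowest in replicate 2. Slc13a1 was lowest there after quantile normalization. In the third panel Slc39a7 and Slc39a13 have opposite orders.

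Magnesium carriers of the Slc41a family were not called. Slc41a1 read 5.98, 6.20 and 5.94, Slc41a2 read 6.39, 6.16 and 5.54, and Slc41a3 read 6.20, 6.34 and 6.28. Other magnesium genes passed in 6 of 12 cases. Among them were Magt1, linked to magnesium uptake (10.49, 10.72 and 10.50), the mitochondrial channel gene Mrs2 (9.49, 9.51 and 8.65), the channel kinase gene Trpm7 (8.15, 8.69 and 8.0) and Mmgt1 (8.60, 8.15 and 7.90). Trpm6, the magnesium channel of the distal convoluted tubule, was under the level on every array (5.71, 5.83 and 5.88), although Slc12a3 of the same segment was called.

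The list of carriers known mainly from nerve, ear, gut, testis or skin held 10 genes, and none passed by limma or at an unadjusted p under 0.05. Their means ran from 4.21 for Slc26a3, an intestinal chloride exchanger, to 6.13 for Slc24a5, the exchanger of pigment cells, and included Slc26a5, prestin of hair cells (4.90), and Slc26a8 of testis (5.06). The stomach and lung carrier Slc26a9 (5.11) and Slc26a10 (6.58) were not called either.

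Across the 38 called genes, 7 had arrays more than 1 log2 unit apart (18.4%), beside 13.7% of all called genes. They were Slc12a1, Slc4a4, Slc9a3, Slc9a3r1, Slc9a3r2, Slc39a10 and Slc39a6. Replicate 4 was highest in 20 of the 38, beside 35.4% of all called genes, and replicate 5 was lowest in 19, beside 52.8%. The median over the 38 of 1 array minus the mean of the others was 0.043, 0.21 and -0.22 for replicates 2, 4 and 5, and over all called genes it was 0.12, 0.055 and -0.19. The values are those deposited, and the order of the arrays depends on the scaling between them. Over all probe sets on the arrays, replicate 5 had the highest median log2 signal, 6.21, against 6.09 and 6.11 in replicates 2 and 4.

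After quantile normalization, which gives the arrays 1 common distribution, the median differences over the 38 genes were -0.064, 0.14 and -0.014, so that of replicate 2 changed sign and that of replicate 5 was close to 0. Over all called genes they were 0.047, -0.014 and -0.037, and 39.5% of these genes were lowest in replicate 5. Of the 38, 16 were lowest in replicate 5 and 14 highest there, against 19 and 9 as deposited. Proximal tubule carriers were lowest in replicate 5 in 6 of 8 cases, since Slc13a1 moved to replicate 2, and Slc34a1, Slc4a4 and Slc9a3 kept differences of -0.64, -0.81 and -1.27. The 4 zinc exporters kept their order. The bicarbonate and proton partners were lowest in replicate 5 in 8 of 11 cases and the regulators of cation-chloride cotransport in 6 of 9. Mural markers were highest in replicate 2 in 7 of 13, beside 36.9% of all called genes. The genes spanning over 1 log2 unit were then 5, Slc12a1, Slc4a9, Slc9a3, Slc9a3r1 and Slc9a3r2.

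The count depended on where the background level was set. With the olfactory receptor level at the 99th percentile, 15 of the 83 passed, beside 16.6% of all genes, and with it at the 90th percentile 47 passed, beside 50% of all genes. With keratin-associated protein genes as background 5 passed, beside 3.56%, and with vomeronasal receptor genes 67, beside 65.9%. Without replicate 2, 4 or 5 there were 29, 30 and 39 called, beside 30.3%, 32.1% and 39.2% of all genes. The 5 were Slc12a1, Slc12a2, Slc13a1, Slc34a1 and Slc4a4. The 15 were these and Slc12a3, Slc13a3, Slc30a1, Slc30a9, Slc39a1, Slc4a3, Slc4a9, Slc8a1, Slc9a3r1 and Slc9a3r2. Those 15 also passed with any 1 array left out, while 11 of the other called genes lost their call in at least 1 such fit.

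**Figure D4:**
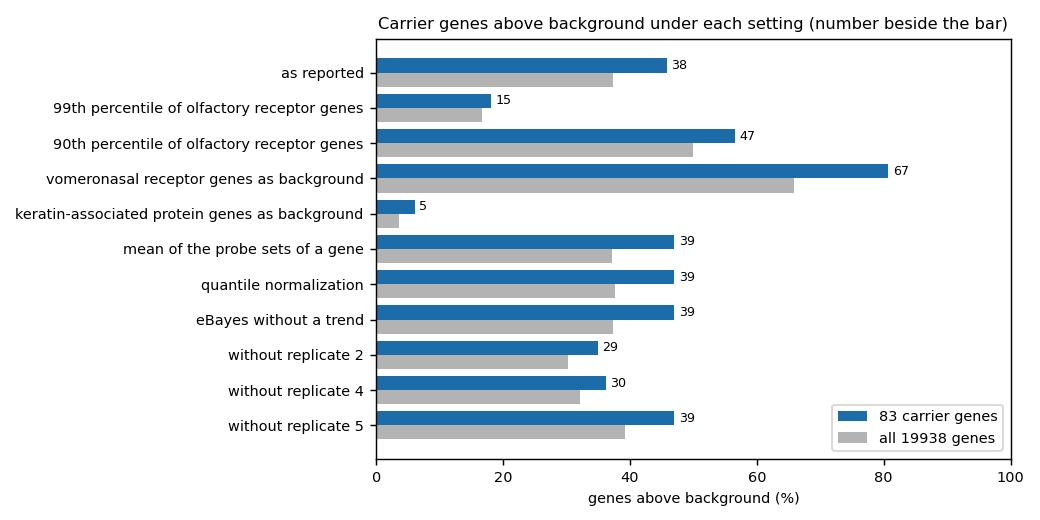
Share of genes above background (x axis, percent, from 0) under each setting on the y axis, for the 83 genes of the set (blue, with the number called) and for all genes (grey). The number called runs from 5 to 67 with the background family and percentile, and both bars move together.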

How the data were processed

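RNA from YFP-positive kidney cells was amplified with a NuGEN kit in 1 round and labelled with biotin, per the labels' protocols. The authors deposited a log2 signal for each probe set, made with Affymetrix Expression Console per the submitters' processing notes. Its version and normalization were not given in the sources used here. That the scale is log2 was inferred from the range, 2.21 to 13.96.

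Gene names are those GEO's platform table gives: out of 35557 probe sets, 21789 had 1 symbol, 1621 several and 12147 none listed. Entrez identifiers matched 21698 of them to RefSeq (GRCm38.p6), changing 0 symbols. The brightest probe set stood for a gene, leaving 19938 genes. The level was the 95th percentile of 1027 olfactory receptor genes on each array. Heights were fitted by limma 3.58.1 (R 4.3.3) with an intercept and a trended eBayes prior, tested one-sided, and adjusted over all genes by Benjamini-Hochberg. The number of arrays, 3, limits the precision. Summaries used Python 3.11.15 and pandas 2.3.3.

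Tested on simulated arrays of 19938 genes, it recovered 70%, 90%, 98% and 100% of genes given true heights of 0.5, 1, 2 and 3. Of genes at or under the level, each simulated at its own mean height, 0.0508% were called. Since such genes could lie far under the level, that is not the rate for genes lying exactly at it. Only noise between arrays was simulated. The members and lists were chosen with earlier results of these data known. Every member is accounted for; of partner genes, up to 4 with the lowest p and up to 2 not called were named per list, with further ones chosen after their values were seen. Promoters were taken from RefSeq and matched 68 of 83 members by symbol.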

Additional observations from a re-analysis of the deposited data

How the results depend on the processing

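The number of carrier genes above background was 15 with the olfactory receptor level at the 99th percentile, 67 with vomeronasal receptor genes as background and 5 with keratin-associated protein genes, against 38 as reported. The number over all genes was 3303, 13140 and 709 under these settings, against 7437. Leaving out 1 array gave 29 to 39 carrier genes and 6051 to 7806 genes in all. The counts stayed within 1.5 times at the 90th percentile (47), with the mean of probe sets, every probe set as a feature, quantile normalization, no variance trend, the filter on dim genes, and without the 3 adaptor and scaffold genes (35). Quantile normalization took the carriers' median difference from -0.22 to -0.014 for replicate 5, from 0.043 to -0.064 for replicate 2 and from 0.21 to 0.14 for replicate 4, and the genes spanning over 1 log2 unit from 7 to 5; the counts of genes lowest or highest in an array after it were added after seeing the data. With the mean of probe sets or every probe set, that number remained 7 and the replicate 5 difference was -0.16 and -0.18. A higher level lowers every height by construction. At the 99th percentile 10 genes lost the call with a height above 0, and 13 lost it with a height below 0: Slc12a4 (-0.15), Slc12a7 (-0.25), Slc12a9 (-0.18), Slc20a1 (-0.14), Slc26a4 (-0.22), Slc30a3 (-0.10), Slc30a6 (-0.17), Slc34a3 (-0.25), Slc39a2 (-0.47), Slc39a5 (-0.42), Slc39a6 (-0.013), Slc39a9 (-0.24) and Slc4a1 (-0.29). With keratin-associated genes 6 lost the call with a height above 0, and 27 lost it with a height below 0: Slc12a4 (-1.61), Slc12a7 (-1.71), Slc12a9 (-1.64), Slc20a1 (-1.61), Slc20a2 (-0.97), Slc26a1 (-1.15), Slc26a4 (-1.68), Slc30a1 (-0.61), Slc30a3 (-1.57), Slc30a5 (-1.19), Slc30a6 (-1.64), Slc34a3 (-1.72), Slc39a10 (-0.65), Slc39a13 (-0.94), Slc39a2 (-1.93), Slc39a3 (-1.26), Slc39a5 (-1.89), Slc39a6 (-1.48), Slc39a7 (-0.86), Slc39a9 (-1.70), Slc4a1 (-1.75), Slc4a1ap (-0.99), Slc4a9 (-0.20), Slc8a1 (-0.49), Slc9a3 (-1.09), Slc9a3r2 (-0.52) and Slc9a8 (-1.05). Slc4a2 gained a call under 7 of 12 settings. No paired analysis was possible because there is 1 group. The level of keratin-associated genes thus lay above the mean height of 27 of the 38 called carriers, which bounds what a low height can show.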
